A study of Mus musculus with 4 samples.

Results

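Adult hemoglobin and the heme it carries were described in single cells of mouse fracture callus and trabecular bone through 9 genes. They are the α globins Hba-a1 and Hba-a2, the β globins Hbb-bs and Hbb-bt, the heme enzymes Alas2, Alad, Uros and Fech, and the transcription factor Klf1. The genes were chosen by symbol, and all 9 were found among the 32285 features of each of the 4 libraries. The study asked how excess glucocorticoid alters bone turnover, with droplet single-cell RNA-seq of callus and of trabecular bone, each with 1 control and 1 glucocorticoid (GC) library. All mice were C57BL/6J males of 20 weeks. GC mice carried a subcutaneous pellet that slowly released prednisolone, a synthetic glucocorticoid, at 6.25 mg/kg/d, control mice carried a placebo pellet, and tissue was collected at week 2. This is the only treatment that the labels give, and they give it for the bone loss model, while the accompanying text describes daily injection for the fracture model, so the delivery route in the callus mice is uncertain. The number of mice behind each library is not given in the sources used here. Marrow plugs were flushed, the bone left was crushed and digested with Collagenase II, Dispase II and DNase I, and the fractions were pooled.

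Hemoglobin is built from α and β globin chains, each holding a heme, and red cell precursors of the marrow devote most of their late transcription to it. Alas2 makes the heme precursor aminolevulinate in the mitochondria of erythroid cells and is the rate-limiting step, Alad and Uros act in the cytosol on the way to the porphyrin ring, and Fech inserts iron to finish heme. Klf1 is an erythroid transcription factor that binds CACCC elements and activates the β globin genes and many other red cell genes, and it acts together with Gata1, which binds GATA elements.

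In the mouse genome build GRCm38, Hba-a1 (ENSMUSG00000069919) lies at chr11:32283511-32284465 and Hba-a2 (ENSMUSG00000069917) at chr11:32296489-32297298, both on the + strand with 12023 bases between them. Hbb-bs (ENSMUSG00000052305) lies at chr7:103826534-103828096 and Hbb-bt (ENSMUSG00000073940) at chr7:103812524-103813996, both on the - strand with 12537 bases between them. Alas2 lies at chrX:150547375-150570638 (+), Alad at chr4:62509169-62519918 (-), Uros at chr7:133686243-133710072 (-) and Klf1 at chr8:84901928-84905291 (+). The copies are so alike that reads cannot always be assigned: 67.5% of the 50-base windows of the Hba-a1 transcript also occur in Hba-a2, and 65.8% of those of Hbb-bs also occur in Hbb-bt, while no window of Hba-a1 occurs in Hbb-bs. The split within each pair is therefore uncertain, and the sum of the 4 adult globins is the measure given first below.

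The 250 bases before the transcription start, from the RefSeq promoter entries of build GRCm38.p6, are shown for the globins, Alas2 and Klf1. These genes stood furthest above other cells, and the factors named above bind GATA and CACCC elements, which were among the letters searched. Capitals mark the GATA motif GATAA, the Klf motif CACCC, the CCAAT box and the TATA motif TATAA on either strand, and overlapping matches run together. On the reverse strand the GATA motif reads TTATC, the Klf motif GGGTG, the CCAAT box ATTGG and the TATA motif TTATA. The Hba-a1 window (chr11:32283422-32283671, +) shares a run of 247 of its 250 bases with that of Hba-a2, shifted by 3 bases, and is not printed.
Hba-a2, chr11:32296242-32296491, +: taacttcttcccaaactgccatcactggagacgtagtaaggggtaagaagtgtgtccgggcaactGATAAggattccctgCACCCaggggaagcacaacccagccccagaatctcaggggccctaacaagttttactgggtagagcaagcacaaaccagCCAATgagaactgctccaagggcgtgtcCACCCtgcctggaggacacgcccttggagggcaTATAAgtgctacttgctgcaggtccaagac
Hbb-bs, chr7:103827929-103828178, -: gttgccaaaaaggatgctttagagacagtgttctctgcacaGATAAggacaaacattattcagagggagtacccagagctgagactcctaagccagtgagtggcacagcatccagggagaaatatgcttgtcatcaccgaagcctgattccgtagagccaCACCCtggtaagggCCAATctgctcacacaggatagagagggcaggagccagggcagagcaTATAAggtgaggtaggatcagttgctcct
Hbb-bt, chr7:103813924-103814173, -: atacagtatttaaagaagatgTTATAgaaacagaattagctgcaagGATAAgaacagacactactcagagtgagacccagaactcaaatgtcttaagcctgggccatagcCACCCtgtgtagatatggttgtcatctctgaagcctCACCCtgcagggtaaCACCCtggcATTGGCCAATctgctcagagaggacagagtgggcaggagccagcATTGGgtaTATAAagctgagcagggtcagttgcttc
Alas2, chrX:150547167-150547416, +: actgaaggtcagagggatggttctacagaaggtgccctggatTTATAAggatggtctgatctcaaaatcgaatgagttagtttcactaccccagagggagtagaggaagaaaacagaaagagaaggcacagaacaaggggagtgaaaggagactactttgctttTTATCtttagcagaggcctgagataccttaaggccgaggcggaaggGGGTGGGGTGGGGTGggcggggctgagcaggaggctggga
Klf1, chr8:84901732-84901981, +: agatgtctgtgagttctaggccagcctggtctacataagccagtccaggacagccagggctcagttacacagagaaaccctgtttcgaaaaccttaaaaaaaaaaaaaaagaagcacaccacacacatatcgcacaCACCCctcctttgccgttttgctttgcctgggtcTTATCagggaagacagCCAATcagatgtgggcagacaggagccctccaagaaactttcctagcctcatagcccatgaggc
Each of these windows held GATAA once. It lay 181 to 185 bases before the start in Hba-a2, 205 to 209 in Hbb-bs, 200 to 204 in Hbb-bt, 82 to 86 in Alas2 and 76 to 80 in Klf1, on the reverse strand in the last pair. CACCC occurred 2 times in Hba-a2, once in Hbb-bs, 3 times in Hbb-bt, 3 times in Alas2 as 3 consecutive reverse-strand copies, and once in Klf1. Among 32851 promoter windows of the same length, 22.6% held GATAA, 52% held CACCC and 10.1% held both, 33.8% held CCAAT and 22.8% held TATAA. The 2 entries of Alad held no GATAA, and 1 of the 2 entries of Uros held it. A match of letters is a description and not a binding site.

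After cell calling, 6714 control and 6890 GC cells of callus and 3832 control and 4604 GC cells of trabecular bone were kept, with a median of 4178.5, 3303, 6261 and 5623.5 UMIs (unique molecular identifiers, counted molecules) per cell. Callus was rich in chondrocytes (2490 in control and 2386 in GC), whereas in trabecular bone no cluster was named chondrocyte or osteoblast by its markers and neutrophils were most frequent (2537 and 3130 cells). Each pair of libraries shared 7 to 10 cell barcodes, and without them the globin ratios given below were 1.07 and 1.57 in erythroid cells of callus and trabecular bone and 1.85 and 1.94 in the other cells. Clusters were named with 20 erythroid marker genes, none of them among the 9 genes, which were left out of the clustering. All 10 erythroid clusters had 2 to 8 of these markers, such as the band 3 gene Slc4a1 and the Rh blood group gene Rhd, among their 10 leading genes, where no marker of another class stood. Beyond these leading genes, some clusters passed markers of other classes too. Cluster 6 of trabecular bone (258 cells) passed 10 of 20 erythroid and 8 of 14 neutrophil markers. Cluster 41 of trabecular bone (65 cells) passed 19 of 20 erythroid, 10 of 14 neutrophil and 3 of 5 granulocyte-monocyte progenitor markers. Clusters 24 and 25 of trabecular bone passed 6 and 7 of 14 neutrophil markers. Cluster 67 of callus (15 cells) passed 10 of 20 erythroid and 9 of 11 chondrocyte markers. The erythroid clusters held 49 control and 63 GC cells of callus and 328 control and 566 GC cells of trabecular bone. Since each condition had 1 library, no test between conditions was possible. Levels are CPM, the UMIs of a gene scaled to the same fixed total of UMIs in every group of cells, and the ranges given in brackets are exact 95% intervals that cover counting error only. Where 4 values follow each other, callus comes before trabecular bone, and control before GC within each.

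Hemoglobin RNA was far more plentiful in trabecular bone than in callus, and much of it lay outside the cells kept. Over all barcodes listed the 4 adult globins took 0.280% of UMIs in control and 0.645% in GC callus, and 6.14% and 11.8% in control and GC trabecular bone. The control and GC libraries of trabecular bone held 1381106 and 2895610 UMIs of Hbb-bs, and those of callus held 181310 and 255831. The matrix of GC callus lists only barcodes that the authors had called, so its totals are not like the others. Over called barcodes alone globin took 0.263% and 0.645% of UMIs in callus and 5.51% and 11.8% in trabecular bone, with the calls of GC callus made by the authors and the others made here. On this count too the GC library of each tissue had more globin per UMI.

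A sizeable share of these molecules sat in barcodes that were called as droplets with RNA but had fewer than 200 genes. In callus there were 140 of them in control (1.89% of called barcodes, 1.59% to 2.22%) and 233 in GC (3.002%, 2.63% to 3.41%). In trabecular bone there were 198 in control (4.71%, 4.09% to 5.39%) and 709 in GC (12.7%, 11.9% to 13.6%). Adult globin made up 65.7%, 74.4%, 91.4% and 92.3% of their UMIs. They carried Alas2 and Fech and almost no Alad, Uros or Klf1: in GC trabecular bone they held 5116 Alas2 and 1337 Fech UMIs, but 5 of Alad, 0 of Uros and 3 of Klf1. These barcodes held 59.6%, 78.8%, 29.0% and 42.2% of the globin UMIs of called barcodes and did not enter the cell classes. Whether they are reticulocytes, red cells or droplets of free RNA was not tested.

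Barcodes under 100 UMIs were taken as free RNA, and whether some of them hold red cells low in RNA was not tested. Globin was 0.429% of UMIs there in control callus (0.423% to 0.434%). In trabecular bone it was 11.04% in control (11.01% to 11.07%) and 11.6% in GC (11.5% to 11.6%), a GC over control ratio of 1.05 (1.04 to 1.05). The direction depended on which barcodes were read: under 10 UMIs the share was 6.97% in control and 12.3% in GC, and from 10 to 99 UMIs it was 16.7% and 10.9%. Such barcodes were not used here for GC callus, whose matrix lists only barcodes already called by the authors. Alas2 was at 210 and 260 CPM and Klf1 at 23.4 and 32.1 CPM in the barcodes under 100 UMIs of control and GC trabecular bone, so RNA of the erythroid enzymes was in the free pool too. Per 1000 globin UMIs, Alas2 had 1.90 UMIs in the free RNA of control trabecular bone and 2.25 in that of GC, beside 3.02 and 2.76 in the erythroid cells.

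**Figure D1:**
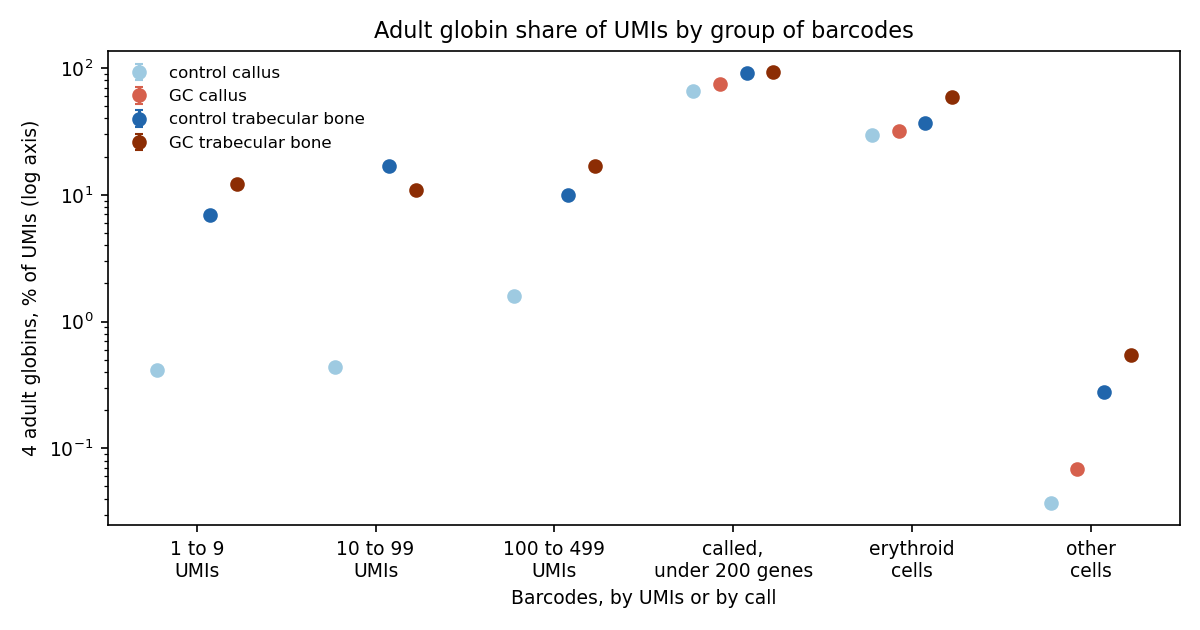
Adult globin as a percentage of UMIs (log axis) in barcodes grouped by UMIs or by call, 1 point per library. GC callus has no points under 500 UMIs, the called barcodes under 200 genes lie highest in every library at 65.7% to 92.3%, and the order of control and GC trabecular bone differs between 1 to 9 and 10 to 99 UMIs.

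Erythroid cells had the highest level of each of the 9 genes in each of the 4 libraries. Adult globin took 29.5% of their UMIs in control and 31.7% in GC callus, and 37.1% in control and 58.6% in GC trabecular bone. It took 0.0369%, 0.0683%, 0.281% and 0.546% of the UMIs of all other cells. Alas2 stood furthest above the other cells among the enzymes: 1369, 1515, 1121 and 1620 CPM in erythroid cells were 1168, 844, 134 and 105 times the level of the other cells. Fech differed less, at 1039, 1235, 566 and 667 CPM or 45.3, 48.7, 43.2 and 44.0 times the other cells.

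For the enzymes in the middle of the pathway, Alad reached 240, 208, 294 and 159 CPM in the erythroid cells of the 4 libraries. These were 47.8, 64.5, 41.4 and 21.0 times the other cells. Uros was at 112, 194, 62.6 and 33.9 CPM, or 40.7, 62.5, 36.1 and 21.0 times the other cells. The transcription factor Klf1 was at 79.9, 108, 184 and 87.3 CPM, and had no UMI in 7 and 11 of the 13 other classes of control and GC callus. With each cell thinned to 1000 UMIs, a Klf1 UMI was found in 12.8% of erythroid cells of control trabecular bone and 4.64% of those of GC trabecular bone, and in 0.0402% and 0.0324% of neutrophils, which should lack it. The unthinned shares were 35.1% and 15.2% of erythroid cells and 0.315% and 0.224% of neutrophils, at median depths of 6329.5 and 5819 UMIs in erythroid cells and 5911 and 4895.5 in neutrophils.

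Outside erythroid cells, the enzymes differed in how they stood to globin. In trabecular bone Alas2 stood to globin nearly as in erythroid cells, and in callus it was lower than that. Fech, Alad and Uros each stood higher to globin than in erythroid cells in both tissues, and further so in callus. In control callus the other cells held 1820 Fech, 398 Alad and 218 Uros UMIs beside 29292 globin UMIs. The erythroid cells of control callus held 195, 45 and 21 beside 55317. Alas2 had 3.17, 2.63, 2.97 and 2.82 UMIs per 1000 globin UMIs in the other cells, against 4.65, 4.77, 3.02 and 2.76 in the erythroid cells. Fech had 306 UMIs per 1000 globin UMIs in osteoclasts of control callus (249 to 373) and 182 in those of GC callus (151 to 217), against 3.53 and 3.89 in the erythroid cells of these libraries. Osteoclasts, the bone-resorbing cells, were at 59.1 CPM of Fech in control callus and 61.1 in GC callus, the highest of the 13 other classes in GC callus. Of the 193 GC osteoclasts, 73 were in cluster 38, which held no control cell. That cluster passed 5 of 7 osteoclast and 11 of 11 chondrocyte markers, so the 2 osteoclast classes were not alike. Chondrocytes had 89.1 and 64.9 Fech UMIs per 1000 globin UMIs. Heme is also needed by cytochromes in cells outside the red lineage. Osteoclasts and chondrocytes of callus thus had more Fech UMIs per globin UMI than erythroid cells. Whether these came from the cells' own RNA or from free RNA was not tested.

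Some high class levels rested on few cells. Dendritic cells of control callus had a globin level of 14455 CPM, but 1 of the 23 cells was over 10% globin. T or NK cells of GC callus were at 4529 CPM with 3 of 553 cells over 10%, and stromal cells of GC trabecular bone at 20106 CPM with 1 of 46 cells over 10%. In the typical cell of such classes globin was scarce: the median over T or NK cells of GC callus was 0.0253% of a cell's UMIs. Whether these cells are doublets or carry adhering red cells was not tested.

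**Figure D2:**
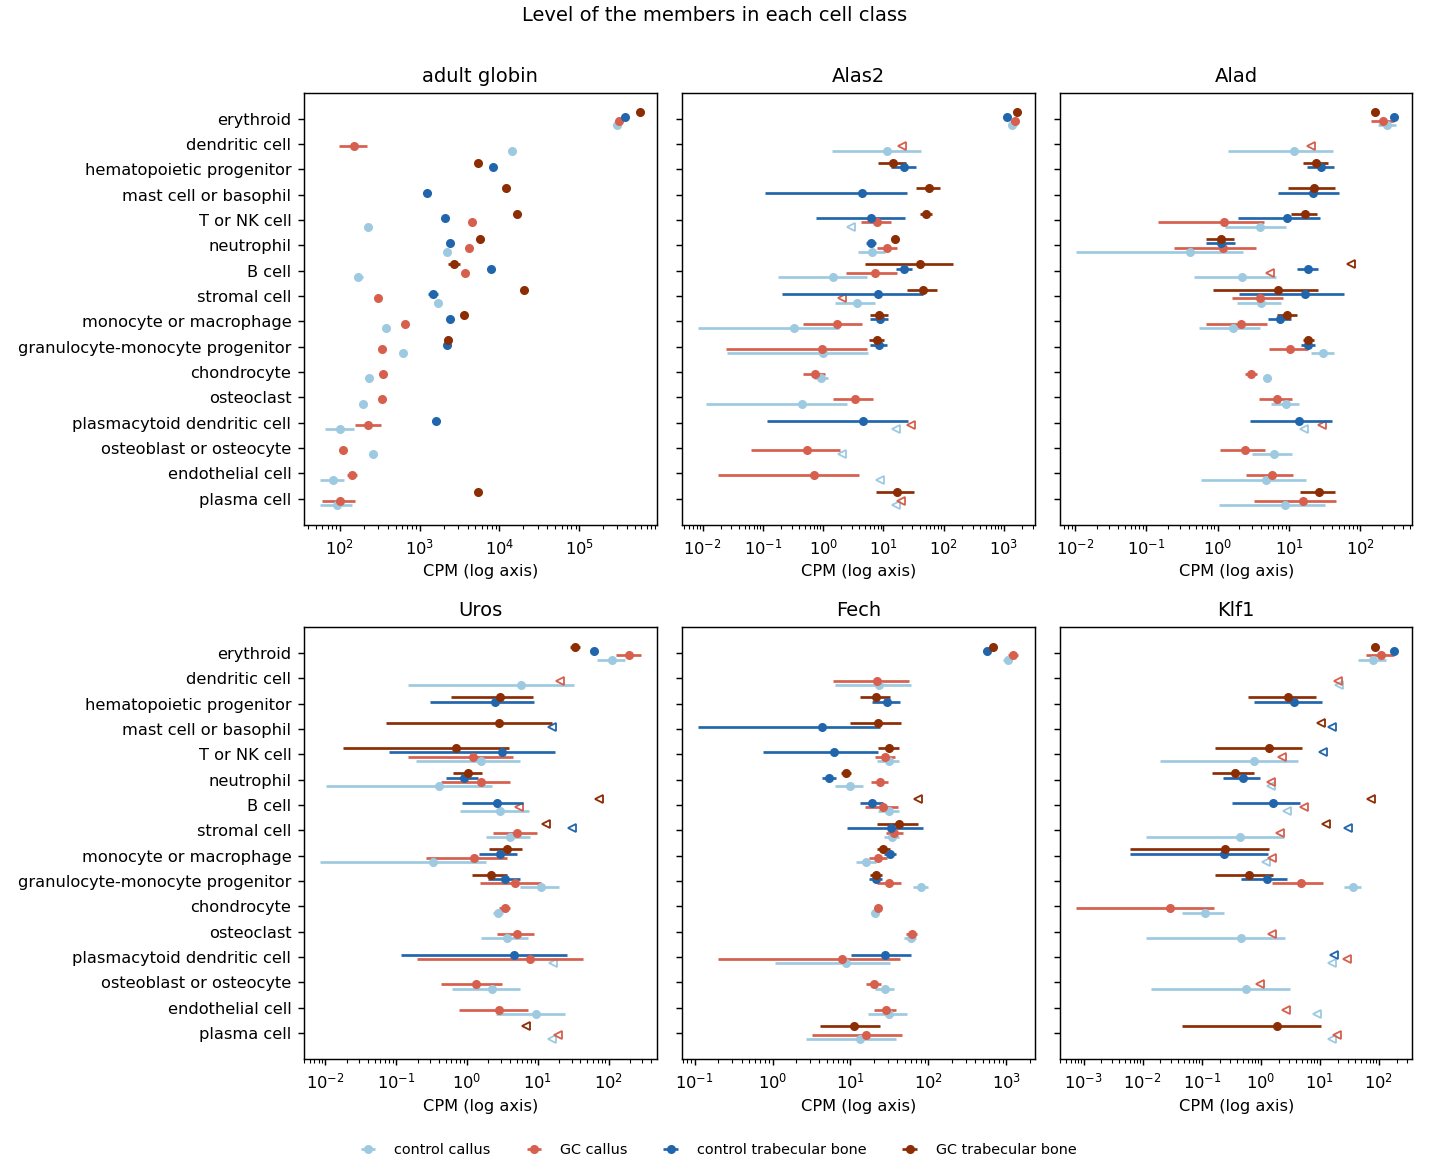
CPM (log axes) of the summed adult globins, Alas2, Alad, Uros, Fech and Klf1 in each cell class, with 1 point and exact 95% interval per library and class. Open triangles mark the upper 95% limit of classes with no UMI, and erythroid cells stand at the right end of every panel.

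Within the erythroid cells of trabecular bone, the genes were highest at different stages. Clusters were ordered by leading genes that are not members: early clusters had Car1 (carbonic anhydrase 1) among the 10 leading genes, late clusters had Bpgm (bisphosphoglycerate mutase, which tunes oxygen release by hemoglobin), and middle clusters had neither. The rule was chosen with the clusters in view. Globin took 11.5% of UMIs in early cells of control trabecular bone, 74.7% in middle cells and 90.4% in late cells, and 9.66%, 69.6% and 89.5% in those of GC trabecular bone. Both libraries thus had the same order of stages.

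Since globin took most UMIs of middle and late cells, the enzymes and Klf1 are given along the stages as CPM of the UMIs that are not globin. Alas2 was at 526, 9309 and 23697 CPM in early, middle and late cells of control trabecular bone and at 418, 6752 and 22686 in GC. In early cluster 42, the lowest in globin, Alas2 had 1 UMI in each library (10.7 and 5.77 CPM). Fech, the closing step, was at 548, 3702 and 5657 CPM in control and 547, 3711 and 6570 in GC. On this scale the first and the last enzyme of heme synthesis were both highest in late cells. Over all UMIs the order was another: Fech was highest in middle cells, at 486, 937 and 542 CPM in control and 494, 1127 and 687 in GC, and Alas2 was at 466, 2357 and 2272 CPM in control and 377, 2050 and 2372 in GC.

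Alad and Klf1 had the opposite order. Alad was at 494, 291 and 45.9 CPM in early, middle and late cells of control trabecular bone and at 457, 253 and 47.4 in GC. Klf1 was at 313, 122 and 0 CPM in control, where 0 UMIs in late cells allow up to 56.4 CPM, and at 250, 134 and 30.2 in GC. Uros was highest in the middle cells, at 96.1, 176 and 45.9 CPM in control and 75.04, 218 and 38.8 in GC, with intervals of middle cells at 112 to 264 and 148 to 310. Over all UMIs Uros was at 85.1, 44.5 and 4.398 CPM in control and 67.8, 66.3 and 4.06 in GC, so its highest stage depended on the scale. Within the early cells, Alad differed between the 2 clusters: it was at 247 and 150 CPM in cluster 42 of control and GC and at 506 and 502 in cluster 14. Klf1 was at 279 CPM (182 to 409) in cluster 42 of control and 315 in cluster 14, and at 115 (70.5 to 178) and 270 (241 to 301) in those of GC.

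**Figure D3:**
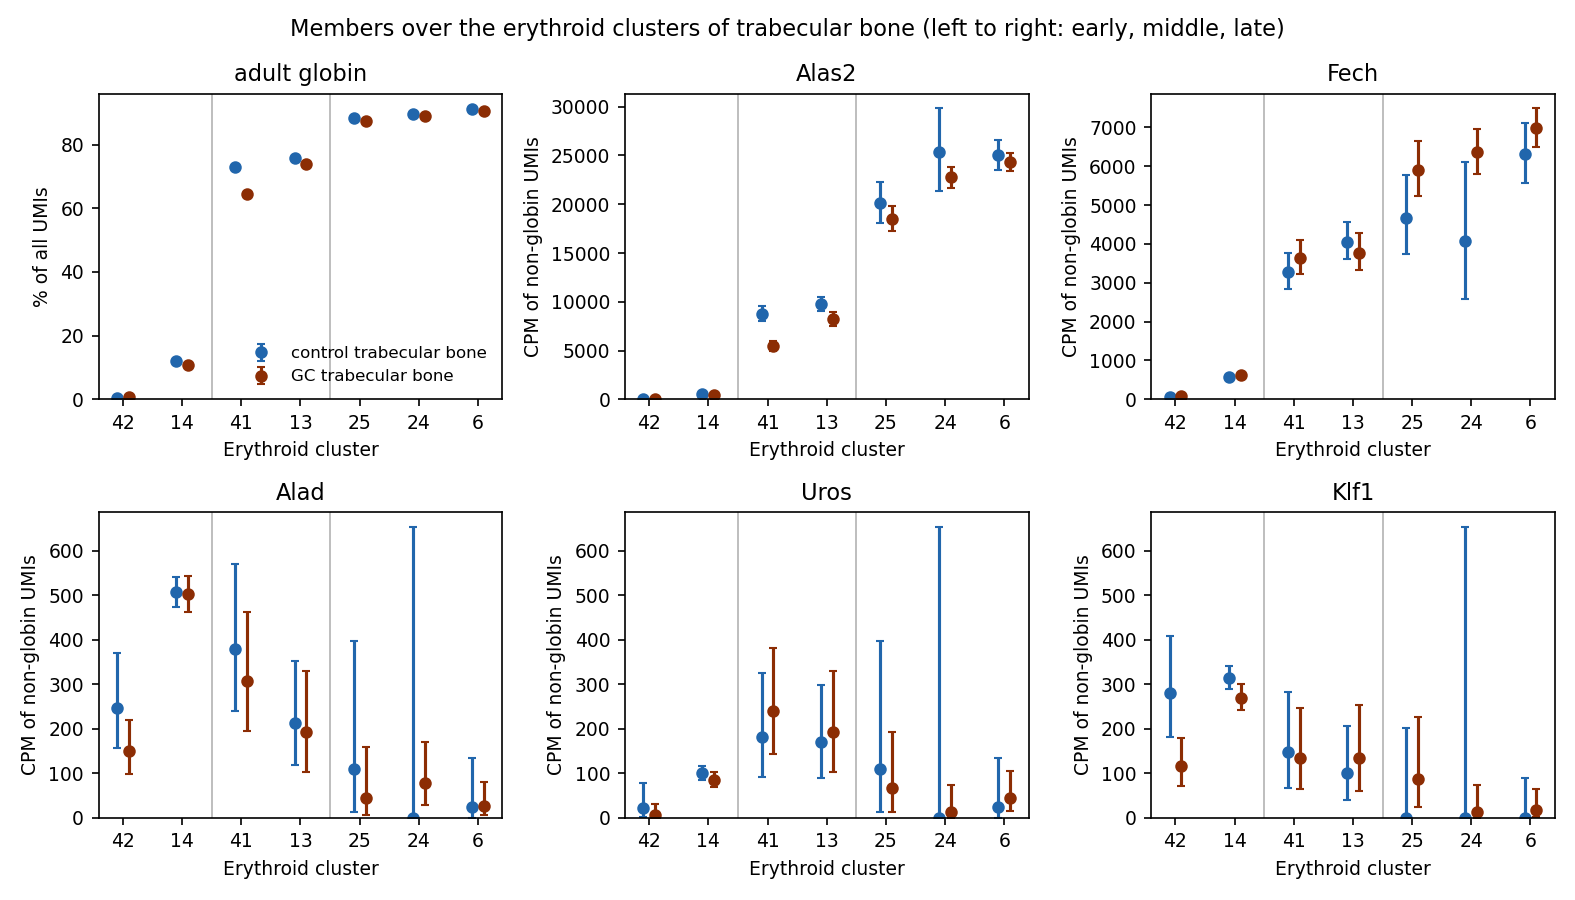
Adult globin (percentage of all UMIs) and Alas2, Fech, Alad, Uros and Klf1 (CPM of non-globin UMIs) in the 7 erythroid clusters of trabecular bone, ordered early, middle and late between the grey lines, with exact 95% intervals. Globin, Alas2 and Fech are highest on the right, Alad and Klf1 on the left, and cluster 24 has 7 control cells and therefore wide intervals.

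Comparing GC with control trabecular bone, pooled erythroid cells had more globin, more Alas2 and slightly more Fech, and less Alad, Uros and Klf1. Adult globin was at 37.1% of UMIs in control and 58.6% in GC, 1.58 times (1.58 to 1.58). The α globin Hba-a1 was at 72801 and 118674 CPM in control and GC, 1.63 times, and its copy Hba-a2 at 47953 and 85798, 1.79 times. The β globin Hbb-bs was at 199915 and 313479 CPM, 1.57 times, and Hbb-bt at 50317 and 68465, 1.36 times. All 4 globins were higher in GC, with Hbb-bt least so.

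The enzymes at the 2 ends of heme synthesis were higher as well. Alas2 was at 1121 CPM in control and 1620 in GC, 1.45 times (1.39 to 1.505), and Fech at 566 and 667, 1.18 times (1.11 to 1.25). Alad was at 294 and 159 CPM, 0.542 times (0.491 to 0.598), and Uros at 62.6 and 33.9, 0.542 times (0.435 to 0.673). Klf1 was at 184 CPM in control and 87.3 in GC, 0.476 times (0.417 to 0.542). Over all UMIs, the scale of these ratios, Alad was at 437, 73.6 and 4.398 CPM in early, middle and late cells of control and Klf1 at 277, 31.0 and 0 CPM.

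On the log2(CPM + 5) scale, none of the 9 genes was at least 2-fold higher in GC, where 0.264% of 6071 genes with at least 50 UMIs were, and 1 (Klf1, -1.03) was at least 2-fold lower, where 6.33% were. The members' median log2 ratio was 0.44 beside -0.60 over all 6071 genes. This median depends on the denominator. With globin UMIs left out of it, 1.15% of genes were higher and 0.741% lower, and 5 members (the 4 globins and Alas2 at 2.20 times) were at least 2-fold higher. On that scale Fech was 1.79 times control (1.69 to 1.90), and Alad (0.824, 0.746 to 0.910) and Klf1 (0.724, 0.634 to 0.825) were still below it. The interval of Uros included 1 on that scale (0.824, 0.661 to 1.02).

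The makeup of the erythroid class differed between the libraries. Erythroid cells were 8.56% of control cells (7.69% to 9.49%) and 12.3% of GC cells (11.4% to 13.3%), 1.44 times (1.25 to 1.65). Late cells were 94 in control and 350 in GC, 3.10 times as a share of all cells (2.46 to 3.93), whereas early cells were 135 and 113 (0.697, 0.538 to 0.901) and middle cells 99 and 103 (0.866, 0.651 to 1.15). Late cluster 24 held 7 control and 99 GC cells, so it was close to a cluster of 1 library. With a minimum of 500 genes per cell, which removes many late cells, the order of the erythroid shares turned, with 4.90% in control and 4.21% in GC.

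Within stages the pooled differences were small or went the other way. Globin was 0.844 times control in early cells (0.838 to 0.849), 0.933 in middle cells (0.928 to 0.937) and 0.990 in late cells (0.988 to 0.993). In pooled UMIs early cluster 42, the lowest in globin, was the exception, with 0.433% globin in control and 0.706% in GC (1.63 times, 1.45 to 1.83). Its median cell was closer between the libraries, at 0.485% globin in control (26 cells) and 0.547% in GC (31 cells). That cell had 1618 UMIs in control and 1118 in GC. The part of free RNA or of single deep cells in this pooled ratio was not tested. Alas2, over all UMIs, was 0.810 times control in early cells (0.730 to 0.899), 0.870 in middle cells (0.798 to 0.947) and 1.04 in late cells (0.986 to 1.11). Alad was 0.944 times control in early cells (0.852 to 1.05) and 1.05 in middle cells (0.644 to 1.69), so the lower pooled level was not seen in early or middle cells taken whole. In cluster 42, part of the early cells, the Alad value per non-globin UMI given above was lower in GC. It rests on few UMIs and is given without an interval, so it is not read as a difference.

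Fech and Klf1 differed from this in part. Fech was 1.02 times control in early cells (0.926 to 1.12), 1.20 in middle cells (1.06 to 1.36) and 1.27 in late cells (1.13 to 1.42). As CPM of non-globin UMIs the middle ratio was 1.002 (0.884 to 1.14) and the late one 1.16 (1.04 to 1.30). Klf1 was 0.815 times control in early cells (0.711 to 0.932), with 577 and 320 UMIs in cluster 14 (0.868, 0.755 to 0.997). Cluster 42 had 26 and 20 Klf1 UMIs (0.412, 0.218 to 0.767). These are fewer than the minimum set for the ratios of single genes. Like the Alad value there, the Klf1 ratio of cluster 42 is not read as a difference. In middle cluster 41, which makes up part of the middle cells, Alas2 was at 8788 and 5427 CPM of non-globin UMIs in control and GC, 0.618 times (0.541 to 0.704), and globin at 73.1% and 64.6%. Cluster 41 also passed neutrophil markers, as given above, and its median cell had 9665 UMIs in control and 4693.5 in GC. Whether it holds mixed droplets was not tested. The intervals of these within-stage ratios cover counting error and not variation between mice. Depth differed within stages too. The median early cell had 8081 UMIs in control and 4273 in GC. These medians were 4292 and 4107 in middle cells and 7150 and 6243 in late cells. The part of depth in the ratios was not tested.

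**Figure D4:**
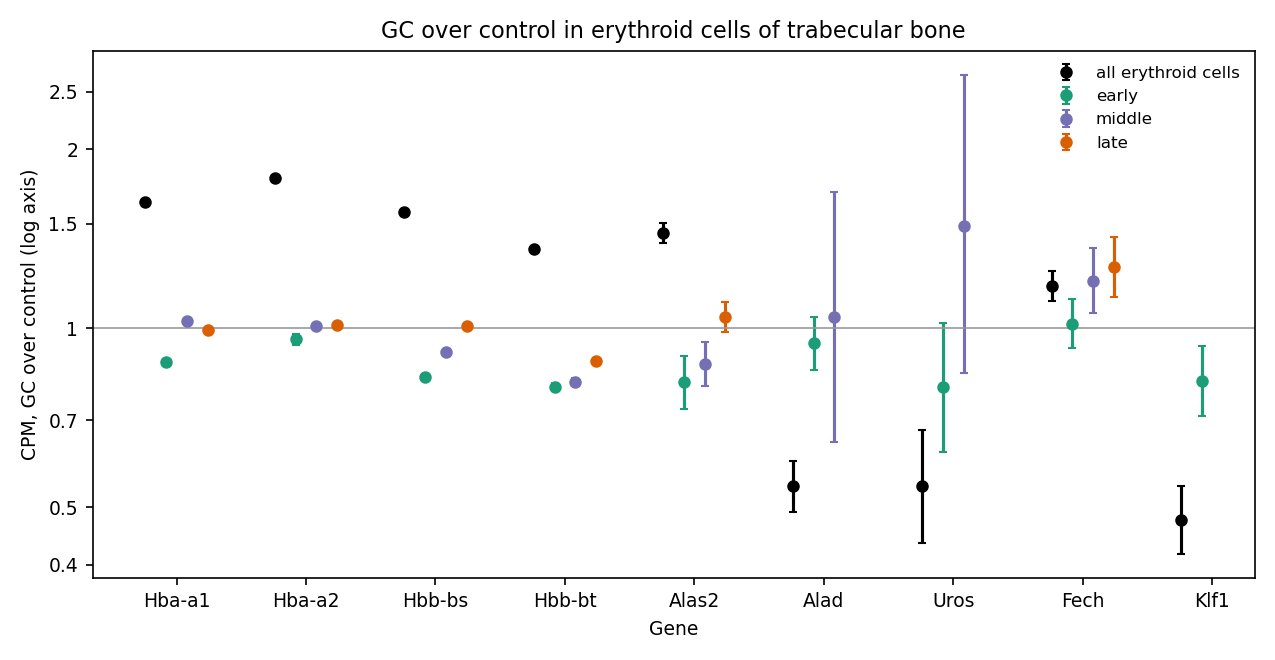
Ratio of CPM in GC over control (log axis) for the 9 genes in erythroid cells of trabecular bone, pooled in black and by stage in colour, with exact 95% intervals; ratios with fewer than 50 UMIs are left out for the stages. The pooled globins and Alas2 lie above 1 while their stage ratios lie between 0.796 and 1.04.

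In callus, where erythroid cells were few, the pooled globin level was close in GC and control. Adult globin was at 29.5% of UMIs in control and 31.7% in GC, 1.08 times (1.06 to 1.09). Hba-a1 was at 37847 and 52382 CPM, 1.38 times, and Hba-a2 at 24196 and 34215, 1.41 times, while Hbb-bs was at 196076 and 190349, 0.971 times (0.956 to 0.986), and Hbb-bt at 36627 and 40391, 1.10 times. The α globins were thus higher in GC and the main β globin slightly lower. The direction of Hbb-bs was not stable: its log2 ratio of -0.04 was above 0 under 8 alternatives, up to 1.56.

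Among the enzymes of callus, Alas2 was at 1369 and 1515 CPM, 1.11 times (0.918 to 1.33), Fech at 1039 and 1235, 1.19 times (0.963 to 1.47), and Alad at 240 and 208, 0.869 times (0.525 to 1.42). Each of these intervals includes 1, so no difference was detectable at this depth. Klf1 had 15 UMIs in each library and Uros 21 and 27, under the minimum of 50. None of the 7 genes with enough UMIs was at least 2-fold higher, where 2.86% of 804 genes were, and none was at least 2-fold lower, where 4.85% were. Erythroid cells were 0.730% of control and 0.914% of GC callus cells, 1.25 times (0.849 to 1.86). The callus values rest on 49 and 63 cells, and the log2 ratio of globin ranged from -0.28 to 1.69 under other ways of calling and grouping cells.

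Cells other than erythroid had more globin in both GC libraries. In trabecular bone globin was at 2806 CPM in control and 5459 in GC, 1.95 times (1.93 to 1.96), and in callus at 369 and 683, 1.85 times (1.82 to 1.88). Alas2 went with it, at 8.34 and 15.4 CPM in trabecular bone (1.85 times, 1.59 to 2.15) and 1.17 and 1.80 in callus (1.53 times, 1.14 to 2.05). Fech was at 13.1 and 15.2 CPM in trabecular bone (1.16 times, 1.01 to 1.32) and 23.0 and 25.4 in callus (1.10 times, 1.03 to 1.19). Alad was 1.07 times control in trabecular bone (0.890 to 1.29) and 0.643 times in callus (0.536 to 0.769).

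In trabecular bone, 2 of the 8 genes with at least 50 UMIs were at least 2-fold higher in GC (Hba-a1 and Hba-a2, 2.29 and 2.18 times), where 0.546% of 11909 genes were, and none was at least 2-fold lower, where 0.63% were. In callus the same 2 genes of 9 were higher (2.38 and 2.62 times), where 0.265% of 15096 genes were, and none was lower, where 0.285% were. Klf1 of callus had 47 UMIs in control and 8 in GC (0.245 times, 0.0999 to 0.523), and stayed within 2-fold on the log2(CPM + 5) scale. Of these, 36 and 5 lay in the class named granulocyte-monocyte progenitor, which was not alike in control and GC callus, as given at the end.

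A small number of cells held much of this globin. Among other cells of trabecular bone, 10 of 3504 in control and 40 of 4038 in GC were over 10% globin, and they held 43.6% and 67.7% of the globin UMIs. In callus these were 7 of 6665 and 17 of 6827, with 31.5% and 47.8%. Without them, a step added after the data had been seen, the ratio was 1.13 in trabecular bone (1.11 to 1.14) and 1.41 in callus (1.38 to 1.44). The median cell of trabecular bone was at 0.163% globin in control and 0.157% in GC. In callus the median was 0% and 0.00695%, and the share of neutrophils with a globin UMI after thinning was 17.3% in control and 42.7% in GC (22.7% and 51.5% unthinned, with median depths of 1305 and 1217 UMIs), against 81.2% and 81.4% in trabecular bone (99.4% and 99.6% unthinned). The neutrophil classes of control and GC callus were not alike. Cluster 1 held 265 control and 1150 GC cells, and cluster 3 held 1305 and 44. Clusters 35 (0 and 202 cells) and 37 (3 and 73 cells) passed 6 and 7 of 14 neutrophil markers. Each also passed 11 of 11 chondrocyte markers. How many neutrophils were below the thinning depth is not given. The part of these points in the neutrophil shares was not tested. The free RNA of GC callus was not analysed here, so its part in the callus differences was not tested.

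The balance of β over α globin UMIs differed by stage, tissue and treatment. In control trabecular bone it was 2.32 in early cells, 2.30 in middle cells and 1.86 in late cells (1.85 to 1.87), and in GC trabecular bone 2.11, 2.02 and 1.83 (1.82 to 1.83). It was lower in GC at each stage, least so in late cells. In callus the ratio was 3.98 in middle cells of control (3.88 to 4.07) and 2.80 in those of GC (2.73 to 2.87), and 3.26 and 2.39 in late cells. The late cells of callus were only 9 in control and 6 in GC. The capture of each transcript is unknown, so the ratio is compared between cells and not read as a number of chains.

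The same order was seen outside erythroid cells. The β over α ratio was 3.80 in other cells of control callus (3.70 to 3.91) and 2.58 in those of GC callus (2.52 to 2.63). In trabecular bone it was 2.20 in control (2.17 to 2.23) and 1.77 in GC (1.76 to 1.79). In the free RNA under 100 UMIs it was 3.26 in control callus, and 2.46 and 2.10 in control and GC trabecular bone. The order of the 4 libraries was thus the same in middle, late and other cells, and that of the 3 libraries with free RNA was the same there. Middle cells were not alike in the tissues, however. Their median cell was at 30.4% and 26.6% globin in control and GC callus, and at 73.9% and 69.1% in control and GC trabecular bone. With 1 library per condition, library and treatment cannot be told apart. Within the α pair, Hba-a1 over Hba-a2 was 2.56 and 2.34 in early cells of control and GC trabecular bone and 1.36 and 1.34 in late cells. Within the β pair, Hbb-bs over Hbb-bt was 3.28 and 3.41 in early cells and 4.05 and 4.63 in late cells, with the split between copies uncertain as said above.

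**Figure D5:**
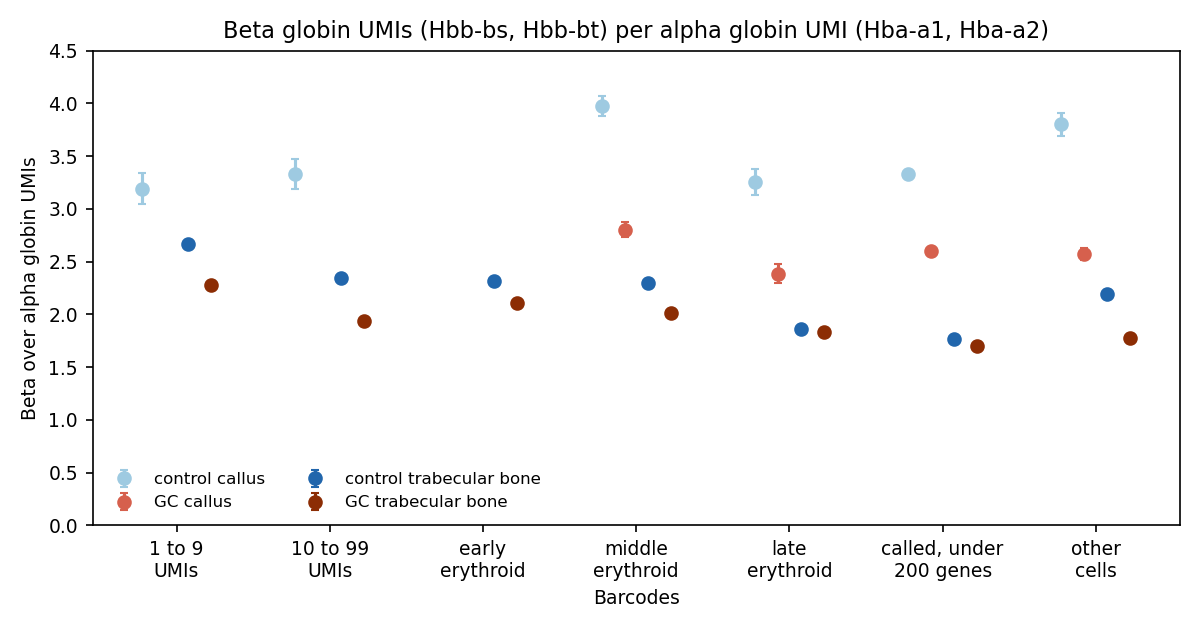
β globin UMIs (Hbb-bs and Hbb-bt) per α globin UMI (Hba-a1 and Hba-a2) in free barcodes, erythroid stages, called barcodes under 200 genes and other cells of each library, with exact 95% intervals. Control callus lies highest, at 3.98 in middle and 3.80 in other cells, and GC trabecular bone lowest.

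The other genes of heme synthesis were lower in GC in pooled erythroid cells of trabecular bone, near the median of all genes. Of 5 listed genes 4 had enough UMIs, and none was at least 2-fold higher or lower, where 0.264% and 6.33% of all genes tested were. Their median log2 ratio was -0.64 beside -0.60 over all genes. Urod, the decarboxylase that acts after Uros, was at 322 and 242 CPM (0.751 times). Cpox and Ppox, which act before Fech in the mitochondria, were at 0.638 and 0.602 times control. Alas2 and Fech, higher in GC, were thus on the other side of 1 from these enzymes on the scale of all UMIs. Alas1, the form of Alas2 used in other tissues, had 5 and 7 UMIs.

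Genes of iron and heme transport were counted next. Of 7 with enough UMIs, 1 was at least 2-fold lower (Abcb10, a mitochondrial transporter of erythroid cells, log2 -1.08) and none higher, where 6.33% and 0.264% of all genes tested were, with a median of -0.63 beside -0.60. Slc25a37, the mitochondrial iron importer mitoferrin, was at 677 and 877 CPM (1.30 times, 1.23 to 1.37), and the heme-binding repressor Bach1 was at 23.1 and 18.1 (0.784, 0.564 to 1.09). Among other cells of callus 1 of 9 tested genes of this list was at least 2-fold higher, where 0.265% of 15096 genes were, and 0 were lower, where 0.285% were. This was Hmox1, the heme-degrading enzyme, at 281 and 599 CPM (2.13 times, 2.10 to 2.17). Its level is pooled over classes whose shares and depth differed. Osteoclasts were 1.67% of control and 2.80% of GC callus cells, and B cells 9.40% and 5.72%. Chondrocytes had a median of 23362 UMIs in control and 12093 in GC. Levels of Hmox1 per class are not given, and the part of these differences in its ratio was not tested.

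Of 9 erythroid transcription factors with enough UMIs none was at least 2-fold higher or lower in trabecular bone, where 0.264% and 6.33% of all genes tested were. None was above 0 on the scale of all UMIs, with a median log2 ratio of -0.72 beside -0.60 over all 6071 genes. Sox6 was highest at -0.27 and Myb next at -0.59, and Ldb1 (-0.90) and Lmo2 (-0.86), partners of Gata1, were lowest. Of 12 membrane and carrier genes none was at least 2-fold higher and 2 were lower, Car1 (-1.07) and the nuclear protein gene Hemgn (-1.01), where 0.264% and 6.33% of all genes tested were. In this list Bpgm was at 884 and 1715 CPM (1.94 times, 1.86 to 2.03). Car1 and Bpgm are the genes that set the stages, so their values describe the makeup of the class again. In erythroid cells of callus no gene of these lists was past 2-fold among the 4 heme enzymes, 4 transport genes, 5 factors and 11 membrane genes with enough UMIs. Of all 804 genes tested there, 2.86% were at least 2-fold higher and 4.85% lower. The embryonic and fetal globins were nearly silent: Hba-x had 1 and 2 UMIs in erythroid cells of control and GC trabecular bone, Hbb-y 0 and 1, Hbb-bh1 1 and 2 and Hbb-bh2 0 and 0.

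The genes whose levels over 48 combinations of cell class and library were most like each member included several genes of the red cell membrane. The correlations are descriptions over classes that share libraries, depth and free RNA. Slc4a1, Trim10, Rhd, Rhag, Epor and Icam4, named here and for the enzymes, were among the markers that named the erythroid class. Their likeness to the members is thus in part set by the naming. Among the 5 genes most like adult globin were Ube2l6 (Pearson r = 0.81), Prxl2a (0.80), Slc4a1 (0.79) and Rec114 (0.78). Among those most like Alas2 were Slc4a1 (0.93), Rec114 (0.91), Trim10 (0.90) and Ube2l6 (0.90). Klf1 was most like the amino acid transporter gene Slc38a5 (0.98), the Rh genes Rhd and Rhag (0.98 each), Paqr9 (0.98) and the erythropoietin receptor gene Epor (0.98).

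For the enzymes, the genes most like Alad included Icam4 (0.89), Ubac1 (0.88) and Urod (0.88), so its nearest genes included another enzyme of heme synthesis. Uros was most like 6030468B19Rik, Acmsd, Pkhd1l1, Btnl10 and Redrum (0.94 each), and those most like Fech included Fhdc1 (0.91), Trim10, Ube2o and Slc30a10 (0.90 each). Among the members, globin and Alas2 had r = 0.93, and globin and Fech r = 0.61.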

How the data were processed

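Cells were dissociated from callus and trabecular bone and sequenced as 10x Genomics libraries, 1 per condition. The authors deposited unnormalized UMI counts per gene and barcode (mm10). The submitters' processing notes name Cell Ranger 5.0.1 and Seurat 3.2.0, while the matrix headers give format 4 or software 4.0.0. The matrix of GC callus holds only called barcodes. In the full matrices, barcodes were called by a UMI cutoff (10% of the 99th percentile of the 3000 largest) or, from 500 UMIs, by a Monte Carlo multinomial test against ranks 45001 to 90000 with 10000 draws at an adjusted p of 0.01. Barcodes under 200 genes or over 10% mitochondrial UMIs were removed, as were the highest doublet scores at 0.8% per 1000 cells. Cells of each tissue were clustered by Leiden (leidenalg 0.10.2, resolution 1, 30 components, 15 neighbours, 2000 variable genes, seed 1) without the 9 genes and the heme and embryonic globin lists.

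Clusters were named from fixed markers, at least 3 of them 2-fold higher and in 10% of cells. The class with the largest share of its markers was taken. Where a candidate class had at least 2 markers among the 10 leading genes, the candidate with the most there was taken instead. A cluster without a leading marker of its class was left unnamed if another class had one there or if it was low in UMIs. This naming order and the stage rule were set after the clusters had been seen. Members and lists were chosen with earlier results of these data known. UMIs were summed per class, expressed as CPM and compared as log2(CPM + 5) for genes with at least 50 UMIs. Levels have exact Poisson, shares Clopper-Pearson and ratios exact conditional 95% intervals, which do not cover variation between mice or the lack of independence of molecules within cells. From the lists, all members were counted and the 2 highest and 2 lowest ratios in trabecular erythroid cells were named, and for likeness the 5 genes with the highest r, except that some of these genes are not reported here. Scripts ran in Python 3.11.15 with scikit-learn 1.9.0, scipy 1.17.1, pandas 2.3.3 and numpy 2.4.6 and were tested on simulated data. Alternatives varied the denominator, depth, pseudocount, UMI minimum, calling, filters and clustering. A further 2, namely other cells over 10% globin left out and naming by share of markers alone, were chosen after seeing the data.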

Additional observations from a re-analysis of the deposited data

Results flagged for a closer look

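The β globin Hbb-bs differed by -0.04 on the log2 scale, GC against control, in erythroid cells of callus and by 0.65 in those of trabecular bone, so the sign differed between the tissues. The difference between the tissues was not tested, since each condition had 1 library. The callus value turned positive under 8 alternatives, and it rests on 49 control and 63 GC cells.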

How the results depend on the processing

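Values are log2 ratios of GC over control; the reported ones were 0.11 (callus) and 0.66 (trabecular bone) for globin in erythroid cells, 0.88 and 0.96 for globin in other cells, 0.33 and 0.52 for the erythroid share, -0.04 for callus Hbb-bs, 0 and 1 for the members past 2-fold, and 0.07 for free globin. Of the alternatives of these results other than callus Hbb-bs, 41 gave a value within the counting interval of the reported one (counts of members: within 1.5 times), 59 left it, and a further 4 had the opposite sign of a reported value whose interval excluded 0. For single genes these were 144, 98 and 11. By sign alone, 7 of 72 ratios and 18 of 253 for single genes were opposite. A value of these results not named below stayed within its interval, which for the callus erythroid share also holds the opposite sign, -0.16 with at most 5% mitochondrial UMIs. With globin out of the denominator, erythroid globin was 0.15 and 1.27, callus Hbb-bs 0.0042 and 5 members of trabecular bone were past 2-fold. With the mean of each cell's CPM, erythroid globin was -0.28 and 0.37, other-cell globin 1.51 and 0.61, callus Hba-a2 -0.0047 and Hbb-bt -0.22, and 0 members of trabecular bone were past 2-fold. Thinned to 1000 UMIs, erythroid globin was -0.0708 and 0.37, other-cell globin 1.56 and 0.61, callus Hbb-bt -0.0296, and 2 members of trabecular bone were past 2-fold. With cells called by the UMI cutoff alone, erythroid globin was 1.33 and 0.74, other-cell globin 0.44 and 1.14, the callus erythroid share -0.67, callus Hbb-bs 1.10, and 4 callus members were past 2-fold. With no minimum of genes, erythroid globin was 1.69 and 0.63, other-cell globin 1.22 and 1.87, callus Hbb-bs 1.56, and 5 callus and 2 trabecular members were past 2-fold. With at least 500 genes, trabecular erythroid globin was 0.22, other-cell globin 0.91 and 0.83, the erythroid share -0.69 and -0.22, and 0 trabecular members were past 2-fold. With at most 5% mitochondrial UMIs, erythroid globin was 0.77 and 0.64, other-cell globin 0.82 and 1.06, callus Hbb-bs 0.62, and 3 callus members were past 2-fold. With doublets kept, erythroid globin was 0.95 and 0.62, other-cell globin 0.84 and 0.59, callus Hbb-bs 0.81, and 4 callus members were past 2-fold. At Leiden resolution 0.5, callus erythroid globin was 0.64, Hbb-bs 0.49 and 3 members were past 2-fold, and at resolution 2 they were 1.06, 0.91 and 5. With the members kept in the clustering, erythroid globin was 0.51 and 0.65, other-cell globin 0.95 and 0.70, callus Hbb-bs 0.37, and 0 trabecular members were past 2-fold. With clusters named by the share of markers alone, erythroid globin was 0.0847 and 0.71, other-cell globin 0.71 and 1.10, the trabecular erythroid share 0.26, and 0 trabecular members were past 2-fold. Without other cells over 10% globin, other-cell globin was 0.49 and 0.17. With a pseudocount of 20 CPM, 0 trabecular members were past 2-fold. Free globin of trabecular bone was 0.82 under 10 UMIs, -0.62 from 10 to 99 UMIs, 0.70 over the ranks that gave the empty-droplet profile and 0.0767 over the other genes. The cause of these moves was not tested. In erythroid cells of callus, 2.86% of all genes tested were at least 2-fold higher and 4.85% lower. With the UMI cutoff alone these shares were 1.91% and 7.10%, and with no minimum of genes 0.972% and 47.7%. With at most 5% mitochondrial UMIs they were 2.76% and 9.61%, and with doublets kept 4.17% and 10.7%. At Leiden resolution 0.5 they were 4.07% and 12.9%, and at resolution 2 they were 4.03% and 11.1%. Among all genes tested in erythroid cells of trabecular bone, 0.264% were at least 2-fold higher and 6.33% lower. These shares were 1.15% and 0.741% with globin out of the denominator and 0.280% and 18.0% with the mean of each cell's CPM. Thinned to 1000 UMIs they were 1.18% and 31.1%, and with no minimum of genes 0.0985% and 17.4%. With at least 500 genes they were 3.11% and 0.567%, and with the members kept in the clustering 0.282% and 5.65%. They were 0.332% and 2.34% with naming by the share of markers alone and 0.0988% and 0.659% with a pseudocount of 20 CPM. No paired analysis was possible because each group has 1 library, so the groups share 1 replicate number and leaving out a library leaves no comparison. Depth limits Klf1 and Uros most: in callus erythroid cells they had 15 and 15, and 21 and 27 UMIs.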

Other observations

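Among the classes not named erythroid, Klf1 was highest in the class named granulocyte-monocyte progenitor of control callus, at 36.4 CPM (25.5 to 50.4). The 36 UMIs lay in 10 of 53 cells. These 10 cells also held 36 of the 38 Gata1 UMIs, 32 of the 34 Epor UMIs and 230 of the 257 Car1 UMIs of the class, 26 of its 30 Alad UMIs, and the only Alas2 UMI. In GC callus 5 Klf1 UMIs lay in 4 of 93 cells, which held 4 of 7 Gata1 UMIs and 35 of 74 Car1 UMIs. Of these 93 cells, 51 were in cluster 18, which held no control cell. Cluster 18 passed 5 of 5 granulocyte-monocyte progenitor and 11 of 11 chondrocyte markers, so the classes of control and GC callus were not alike. The 10 leading genes of a callus cluster in this class, of 34 control and 33 GC cells, included Car1, Car2 and Ermap of the red cell lineage beside Cpa3 and Mcpt8 of mast cells and basophils and Mpo and Ctsg of granulocyte progenitors. This cluster also passed 16 of the 20 erythroid markers, so its name is uncertain. This is a value that was picked after it was seen.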
